A study of Mus musculus with 12 samples.

Results

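Aminoacyl-tRNA synthetases are the enzymes that join each amino acid to its tRNA. Their genes were taken by symbol from the 24341 genes of the deposited table: the letter of an amino acid followed by ars or ars2, and also Eprs, Ears2, Fars2, Farsa, Farsb and Tarsl2. The rule found 38 genes, and no measured value entered it. Of these, 19 encode enzymes of the cytosol and 17 encode mitochondrial enzymes, whose symbols end in 2 (Tarsl2, a cytosolic paralog of Tars, apart). The other 2, Gars for glycine and Kars for lysine, serve both compartments and are counted with the cytosolic enzymes below, which makes 21.

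The cells came from C57Bl/6 mouse adipose tissue and were immortalised with SV40; RNA sequencing gave 12 libraries, 3 in each of 4 groups. Aclyf/f cells carry floxed Acly and are the controls, and Acly-/- cells lack the gene, whose product ATP-citrate lyase splits citrate into acetyl-CoA and oxaloacetate in the cytosol and nucleus. Preadipocytes of both genotypes were taken on day 0. Adipocytes of both genotypes were taken on day 4 after confluent cells had received an adipogenic cocktail with rosiglitazone, a PPARγ agonist. All groups share the SV40 immortalisation, the strain and a serum-containing DMEM medium. Neither the means of deletion nor the origin of the libraries within a group (cultures, clones or animals) is stated, so p-values measure only the spread between libraries, which may be technical.

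A synthetase activates its amino acid with ATP and loads it on the matching tRNA, which then delivers it to the ribosome. The cytosol and the mitochondria use separate sets of these enzymes, encoded by separate nuclear genes, and several cytosolic ones are held together with 3 scaffold proteins in the multisynthetase complex. When amino acids run short, uncharged tRNA activates the kinase GCN2, more ATF4 protein is made, and ATF4 switches on genes of amino acid synthesis and transport, among them many cytosolic synthetase genes. Adipocytes build up mitochondria as they mature, and the mitochondrial enzymes serve the translation of respiratory chain subunits encoded in mitochondrial DNA.

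The binding element of ATF4 with a C/EBP partner has the core TGATGNAA, which reads TTNCATCA on the other strand. Both strands were searched in RefSeq promoters of build GRCm38.p6, each with 250 bases before the start of the gene and 50 after it. Promoters of 28 of the 38 members were in that table; those of Cars, Hars, Lars, Nars, Rars, Vars, Wars, Hars2 and Pars2 are among those that were not. The core was in 5 of the 14 cytosolic promoters, those of Aars, Gars, Iars, Tars and Yars, and in 0 of the 14 mitochondrial ones. Of all 32851 promoters, 3.97% held it. The stretches are shown because these 5 genes, for the alanine, glycine, isoleucine, threonine and tyrosine enzymes, were all among the genes that rose on Acly loss in preadipocytes; capitals mark the core, and all are read from 5′ to 3′ on the strand of the gene. For Aars (plus strand) the 250 bases before the start, chr8:111033592-111033841, hold 1 core and a 30-base window across the start, chr8:111033840-111033869, holds another. For Gars (plus strand, chr6:55037751-55038000) and Tars (minus strand, chr15:11399659-11399908) the core lies just before the start. For Iars (plus strand, chr13:49682126-49682155) and Yars (plus strand, chr4:129189895-129189924) it lies just after it, and only 30 bases are shown. A match is a description of the letters and not a bound site.
Aars, before the start: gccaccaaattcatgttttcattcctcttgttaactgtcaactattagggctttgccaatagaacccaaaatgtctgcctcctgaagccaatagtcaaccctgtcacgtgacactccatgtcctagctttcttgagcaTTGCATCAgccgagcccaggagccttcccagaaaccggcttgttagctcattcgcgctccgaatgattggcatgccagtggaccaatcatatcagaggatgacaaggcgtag
Aars, across the start: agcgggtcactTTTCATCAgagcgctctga
Gars, before the start: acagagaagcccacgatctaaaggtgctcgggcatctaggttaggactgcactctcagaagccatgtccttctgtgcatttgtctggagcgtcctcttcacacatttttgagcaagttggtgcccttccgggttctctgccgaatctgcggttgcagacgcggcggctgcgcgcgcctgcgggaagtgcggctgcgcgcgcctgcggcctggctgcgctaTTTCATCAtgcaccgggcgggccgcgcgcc
Tars, before the start: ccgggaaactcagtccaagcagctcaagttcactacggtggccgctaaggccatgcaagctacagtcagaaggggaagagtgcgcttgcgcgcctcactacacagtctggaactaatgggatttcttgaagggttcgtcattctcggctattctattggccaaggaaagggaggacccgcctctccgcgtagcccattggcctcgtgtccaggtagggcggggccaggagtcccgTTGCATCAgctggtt
Iars, across the start: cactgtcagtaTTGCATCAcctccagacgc
Yars, across the start: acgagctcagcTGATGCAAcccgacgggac

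Levels are in FPKM (fragments counted per kilobase of transcript, relative to the library's total), which compare levels between genes per unit of length and between groups as shares of the mRNA, not as amounts per cell. Acly itself fell to 12.1 ± 0.31 FPKM in Acly-/- preadipocytes from 86.9 ± 2.33 in Aclyf/f preadipocytes, and to 12.4 ± 1.17 in Acly-/- adipocytes from 754 ± 52.5 in Aclyf/f adipocytes (SD, n = 3 libraries). Estimated depth ran from 7140000 to 13700000 fragments a library, and all 38 members passed the filter on low values, which asked for 1 FPKM or more in 3 or more libraries. From that depth and each gene's longest transcript, members rested on an estimated 15 fragments or more in each library. Where shorter transcripts prevail the number is lower. The lowest estimate was that of Ears2 with 15 to 66. Of all FPKM, between 6.21% and 15.5% fell on the 10 highest genes, the most in Acly-/- preadipocyte replicate 3. The summed level of 7 adipocyte markers was 550.6 to 566 FPKM in Aclyf/f and 229 to 265 in Acly-/- preadipocytes, and 9975 to 10739 in Aclyf/f and 5825 to 7237 in Acly-/- adipocytes, with Lep at the floor of the table in all 12 libraries. That of 6 preadipocyte markers was 641 to 744 FPKM in Aclyf/f and 834 to 1155 in Acly-/- preadipocytes, and 134 to 199 in Aclyf/f and 692 to 738 in Acly-/- adipocytes, so that the sum in adipocytes lacking Acly lay within the range of the control preadipocytes; Dlk1 and Thy1 stayed under 1 FPKM in every library. Of these 6, 3 passed the filter (Pdgfra, Pdgfrb and Ly6a). Without Acly all 3 were higher in adipocytes, by 0.92, 1.40 and 2.37 on the log2 scale. In preadipocytes without Acly Pdgfra was lower and the other 2 higher. Each of these differences was called by the limma test used below. Cd34 did not pass the filter, and its mean was under 1 FPKM in every group except Aclyf/f adipocytes, unlike these 3 genes. Ptprc of leukocytes and Cdh5 of endothelium were at the floor in all 12 libraries. The 5 macrophage and leukocyte markers summed to at most 5.35 FPKM, and the 3 endothelial markers to at most 1.59. The 4 epithelial and mesothelial markers summed to 1.60 to 2.18 FPKM in Aclyf/f and 4.14 to 6.35 in Acly-/- preadipocytes. In adipocytes they summed to at most 1.14. The 1 of them that was tested was called higher in Acly-/- preadipocytes, by 1.13 on the log2 scale. The sum of 4 proliferation genes was 272 to 282 FPKM in Aclyf/f and 228 to 271 in Acly-/- preadipocytes, and 196 to 210.1 in Aclyf/f and 108 to 112 in Acly-/- adipocytes. These sums moved with the groups, their part in the results below was not tested, and in bulk RNA fewer cells of a type and less RNA per cell cannot be told apart.

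Cytosolic enzymes had higher mRNA levels than mitochondrial ones in every group. In Aclyf/f preadipocytes the median cytosolic gene stood at 39.9 FPKM and the median mitochondrial gene at 4.53. Nars, for asparagine, was the highest there at 117 ± 3.90 FPKM, followed by Gars at 77.9 ± 4.90 and Kars at 67.2 ± 3.99 (SD, n = 3). The lowest cytosolic genes were Tarsl2 at 2.77 ± 0.60 and Wars, for tryptophan, at 9.33 ± 1.20. Iars2, for isoleucine, led the mitochondrial genes at 22.8 ± 0.43, and Ears2, for glutamate, and Nars2, for asparagine, closed the order at 1.00 ± 0.21 and 1.06 ± 0.21, a difference smaller than their spread. In Aclyf/f adipocytes Eprs, the fused glutamate and proline enzyme, and Aars led in place of Nars, at 188 ± 3.72 and 175 ± 5.50 FPKM, and Gars, at 175 ± 7.52, did not differ from Aars beyond that spread. Nars led again in Acly-/- adipocytes, at 222 ± 13.6, with Gars at 178 ± 13.6.

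**Figure D1:**
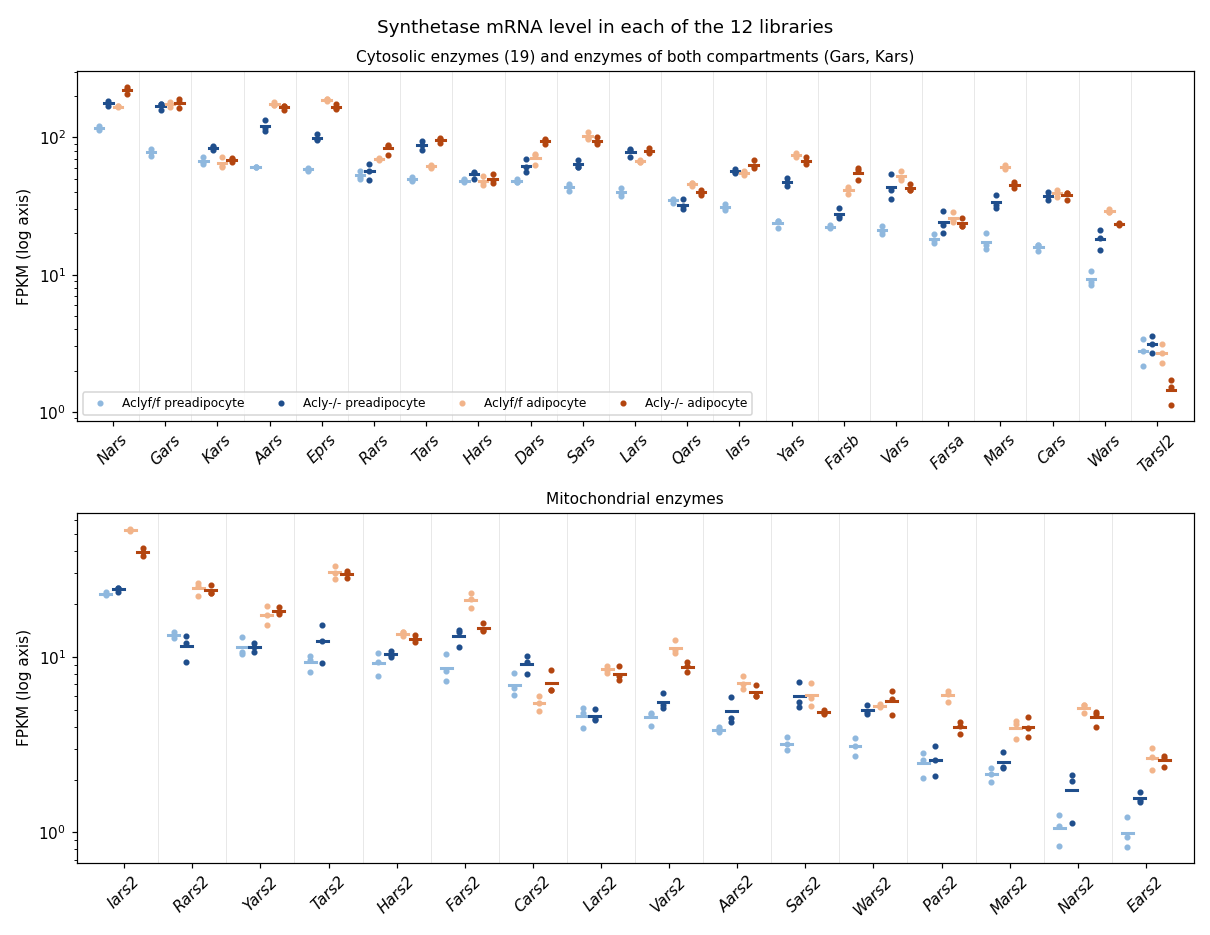
FPKM (log axis) of 37 synthetase genes in each of the 12 libraries, with a bar at each group's mean; the upper panel holds the 21 cytosolic and both-compartment genes, the lower panel 16 of the mitochondrial genes. Aclyf/f preadipocytes (light blue) are lowest for most cytosolic genes, and the 2 adipocyte groups (light and dark orange) lie above both preadipocyte groups for most mitochondrial genes.

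Added up in each library, the 21 cytosolic genes came to 868, 859 and 855 FPKM in Aclyf/f preadipocytes and to 1401, 1306 and 1427 in Acly-/- preadipocytes. In Aclyf/f adipocytes they came to 1637, 1614 and 1601, and in Acly-/- adipocytes to 1745, 1624 and 1728. The Aclyf/f preadipocyte libraries lay far under the other 9, and the adipocyte groups overlapped. The sum was 1.60-fold higher without Acly in preadipocytes, and 1.05-fold higher in adipocytes. The 17 mitochondrial genes together came to 112 ± 4.11 FPKM in Aclyf/f and 132 ± 2.93 in Acly-/- preadipocytes, and to 237 ± 5.98 in Aclyf/f and 205 ± 2.62 in Acly-/- adipocytes. None of these 4 groups overlapped in the mitochondrial sum, which was highest in Aclyf/f adipocytes. The ratio of the cytosolic to the mitochondrial sum was 7.69 ± 0.23 in the control and 10.4 ± 0.32 in the Acly-/- preadipocytes, and 6.82 ± 0.10 in the control and 8.28 ± 0.32 in the Acly-/- adipocytes. Sums and ratios are descriptions with no test, and both stages had the higher ratio without Acly.

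**Figure D2:**
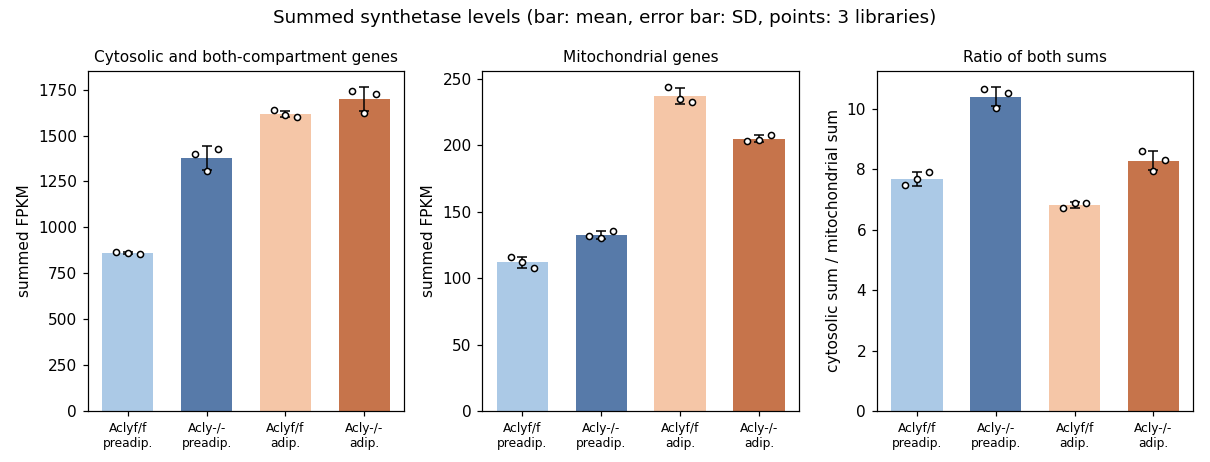
Summed FPKM of the 21 cytosolic and both-compartment genes (left), of the 17 mitochondrial genes (middle) and the ratio of the sums (right) in the 4 groups; bars are means, error bars SD and points the 3 libraries of a group. The cytosolic sum is lowest in Aclyf/f preadipocytes, and the ratio is highest in Acly-/- preadipocytes at 10.4.

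Acly loss in preadipocytes went with higher mRNA of most cytosolic synthetases. Of 21, 17 rose, 0 fell and 4 did not pass the test (Hars, Qars, Rars and Tarsl2), with a median log2 difference of 0.75. Among all 11777 genes tested, 42.2% were called, 19.7% higher and 22.4% lower, with a median of -0.01. The test was limma on log2(FPKM + 1) with Benjamini-Hochberg adjustment over all genes tested and a threshold of 0.05; log2 differences are given with their SE, understate the change of low genes, and folds are ratios of mean FPKM. With every library scaled to the same FPKM sum 15 of the 21 still rose, without Dars and Farsb, while the share of higher calls among all calls went from 46.8% to 34.7%. Without Acly-/- preadipocyte replicate 3, the library with the largest share of FPKM in few genes, 16 of the 21 rose.

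Cars, for cysteine (chr7:143557230-143600090), was at 16.4, 16.5 and 14.8 FPKM in the Aclyf/f preadipocyte libraries and at 37.7, 34.7 and 40.0 in the Acly-/- ones. The genotypes did not overlap, and the 2.36-fold rise was the largest of the set (log2 difference 1.19 ± 0.08, limma adjusted p = 1.15e-07). Gars (chr6:55038001-55079504) was at 82.4, 72.7 and 78.4 FPKM against 175, 157 and 174. All 3 Acly-/- libraries thus lay above all 3 controls, at 2.17-fold (log2 difference 1.11 ± 0.08, limma adjusted p = 1.48e-07). Vars, for valine (chr17:35000907-35016329), was at 20.9, 22.6 and 19.6 FPKM against 41.7, 35.5 and 54.0, the widest spread of these. Its rise was 2.08-fold (log2 difference 1.00 ± 0.12, limma adjusted p = 2.33e-05). Aars (chr8:111033842-111055569) was at 60.9, 61.2 and 60.5 FPKM against 111, 117 and 135, a 1.99-fold rise. Close to it were Yars at 1.99-fold, Lars for leucine at 1.97-fold, Wars at 1.96-fold, Mars for methionine at 1.95-fold and Iars at 1.84-fold. Tars, Eprs, Nars and Sars, the last for serine, rose by 1.77-fold, 1.70-fold, 1.51-fold and 1.46-fold. The rises of Farsa and Farsb, the 2 chains of the phenylalanine enzyme, of Dars for aspartate and of Kars were smaller, 1.25-fold to 1.32-fold.

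Kars, in which the mitochondrial and cytosolic enzyme come from the same gene (chr8:111993439-112011354), was at 71.5, 66.5 and 63.6 FPKM in Aclyf/f and 81.4, 84.4 and 86.8 in Acly-/- preadipocytes. These groups did not overlap (log2 difference 0.32 ± 0.07, limma adjusted p = 0.00336). The 4 cytosolic genes that were not called differed little: the log2 differences were 0.14 for Hars (histidine) and Tarsl2, 0.09 for Rars (arginine) and -0.10 for Qars (glutamine). Leaving out single libraries ended 2 calls: Farsa without Aclyf/f preadipocyte replicate 1 or 3 or Acly-/- preadipocyte replicate 3 (limma adjusted p = 0.0571, 0.079 and 0.0901), and Farsb without Acly-/- preadipocyte replicate 1 (limma adjusted p = 0.0632).

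Of the 17 mitochondrial genes, 7 rose on Acly loss in preadipocytes, 0 fell and 10 did not pass the test, with a median log2 difference of 0.27. Sars2 (chr7:28741968-28753879) was at 2.94, 3.17 and 3.52 FPKM in the controls and 5.17, 5.55 and 7.18 in Acly-/- cells. The groups were apart, at 1.86-fold (log2 difference 0.72 ± 0.12, limma adjusted p = 0.000331). Fars2, the single-chain phenylalanine enzyme of mitochondria, was at 10.4, 8.30 and 7.26 FPKM against 11.4, 14.2 and 13.9, and Wars2 was at 2.71, 3.46 and 3.11 against 5.32, 4.84 and 4.75. Neither pair of groups overlapped, with rises of 1.52-fold and 1.61-fold (limma adjusted p = 0.00199 and 0.001). Ears2, Nars2 and Cars2 also rose, by 1.58-fold, 1.65-fold and 1.32-fold, and the genotypes overlapped in Nars2 and Cars2. Rars2 had the lowest mitochondrial log2 difference, -0.22, and was not called. The share of mitochondrial genes called in either direction, 41.2%, was near the 42.2% of all genes tested. All of these mitochondrial calls were rises, whereas 19.7% of all genes tested were called higher. The difference between the cytosolic and the mitochondrial counts was not tested.

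Leaving out single libraries ended 3 of these mitochondrial calls, and without Acly-/- preadipocyte replicate 3 the rises numbered 5. Cars2 was not called without Aclyf/f preadipocyte replicate 1 or 3 or Acly-/- preadipocyte replicate 2 or 3 (limma adjusted p = 0.087 to 0.126). Nars2, at 1.06 ± 0.21 FPKM in the controls, was not called without Aclyf/f preadipocyte replicate 1 or 2 or Acly-/- preadipocyte replicate 1 or 3 (limma adjusted p = 0.0583 to 0.127). Ears2 was not called without Aclyf/f preadipocyte replicate 3 (limma adjusted p = 0.0556), and without Acly-/- preadipocyte replicate 1 the fall of Rars2 was called (limma adjusted p = 0.0334).

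**Figure D3:**
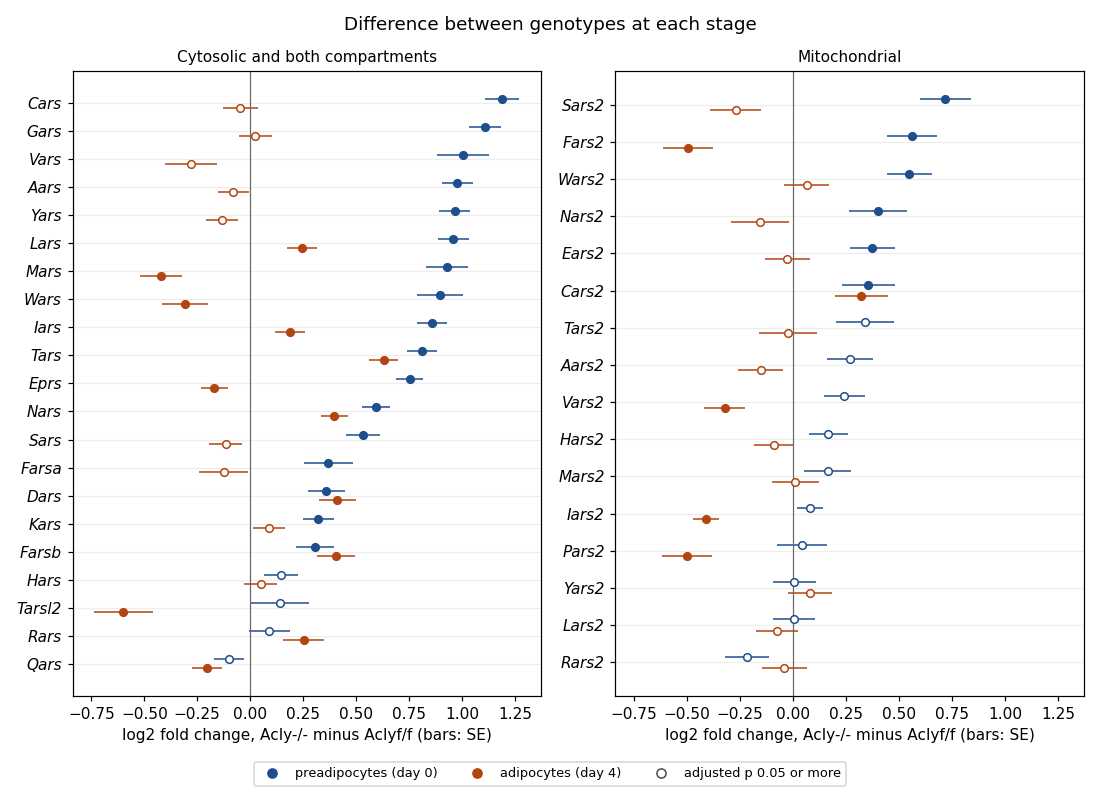
Log2 difference (Acly-/- minus Aclyf/f, on the log2(FPKM + 1) scale, bars SE) of 37 synthetase genes in preadipocytes (blue) and adipocytes (orange); filled points have a limma adjusted p under 0.05. In preadipocytes 23 of the plotted genes are called, all of them higher, and in adipocytes 8 are called higher and 9 lower.

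The 5 genes with the ATF4 core in their promoters rose by 0.81 to 1.11 on the log2 scale in Acly-/- preadipocytes, with a median of 0.96. The 9 cytosolic genes whose promoter was in the table without the core ranged from -0.10 to 0.93, with a median of 0.36, and 7 of them rose. The ranges overlapped, Mars, Eprs and Sars being without the core in this window, and the difference was not tested. Cars, Vars, Lars and Wars, among the larger rises, had no promoter in the table. The median with and without the core was 0.02 and -0.13 for Acly loss in adipocytes. For differentiation in Aclyf/f cells it was 1.16 and 0.55. In Acly-/- cells the order was reversed, at 0.15 and 0.41, with 2 of the 5 and 6 of the 9 rising.

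In adipocytes the same comparison split the genes. Of 21 cytosolic genes 7 rose on Acly loss, 5 fell and 9 did not pass the test; of 17 mitochondrial genes 1 rose, 5 fell and 11 did not pass. Among all genes tested 54.8% were called, 25.6% higher and 29.2% lower, so the shares of cytosolic genes called in either direction, 57.1%, and of mitochondrial genes called, 35.3%, were near or under that of all genes. The median log2 difference was -0.05 for cytosolic genes (0.02 after quantile normalization, so that its sign depends on the scaling) and -0.09 for mitochondrial ones, against -0.02 for all genes.

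Tars (chr15:11383663-11399658) was at 61.3, 63.4 and 60.0 FPKM in Aclyf/f adipocytes and at 98.9, 90.6 and 98.1 in Acly-/- adipocytes. The groups were far apart, at 1.56-fold (log2 difference 0.63 ± 0.07, limma adjusted p = 5.36e-06). Dars was at 63.2, 75.5 and 74.5 FPKM against 96.0, 89.6 and 98.0, and Farsb at 38.7, 42.0 and 43.6 against 59.6, 48.6 and 57.6. Both rose by 1.33-fold with no overlap (limma adjusted p = 0.00141 and 0.00177). Nars rose by 1.32-fold, from 168 ± 0.77 to 222 ± 13.6 FPKM (limma adjusted p = 0.000185). Rars, Lars and Iars rose by 1.20-fold, 1.19-fold and 1.14-fold (limma adjusted p = 0.0407, 0.011 and 0.037).

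Mars was at 62.7, 60.8 and 58.9 FPKM in Aclyf/f adipocytes and at 47.0, 45.9 and 42.6 without Acly, a level 1.35-fold lower with no overlap (log2 difference -0.42 ± 0.10, limma adjusted p = 0.00275). Wars was at 28.4, 28.7 and 30.3 FPKM against 23.8, 22.8 and 23.3, or 1.25-fold lower (limma adjusted p = 0.027). Tarsl2 was at 2.27, 3.11 and 2.70 FPKM against 1.51, 1.12 and 1.69, or 1.87-fold lower (limma adjusted p = 0.00255). The Acly-/- libraries thus lay below all controls in each of these 3 genes. Qars and Eprs, 1.15-fold and 1.12-fold lower, were the other 2 that fell. Tarsl2 and Tars, which encode 2 cytosolic threonine enzymes, went opposite ways, and at 2.69 ± 0.42 FPKM in Aclyf/f adipocytes Tarsl2 was far below Tars at 61.6 ± 1.70.

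Among the mitochondrial genes Pars2, for proline, was at 6.14, 5.56 and 6.38 FPKM in Aclyf/f and 4.02, 4.24 and 3.65 in Acly-/- adipocytes, and Fars2 was at 21.3, 19.1 and 23.0 against 14.2, 15.6 and 14.1. These 2 were 1.52-fold and 1.44-fold lower (limma adjusted p = 0.0028 and 0.00309). Iars2 was at 52.6, 53.8 and 52.4 FPKM against 37.5, 39.5 and 41.7, or 1.34-fold lower, and Vars2 was 1.28-fold lower (limma adjusted p = 8.64e-05 and 0.0116). Cars2, the only mitochondrial gene that rose, was at 6.02, 5.48 and 4.92 FPKM against 6.46, 8.39 and 6.51 (1.30-fold, limma adjusted p = 0.0416).

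The adipocyte counts were less stable than those of preadipocytes. With the same FPKM sum in each library 4 cytosolic genes rose and 8 fell, the share of higher calls among all genes called going from 46.7% to 36.4%; after quantile normalization 2 fell. Without Acly-/- adipocyte replicate 1 the rises numbered 4, and without Aclyf/f adipocyte replicate 2 or 3 or Acly-/- adipocyte replicate 2 or 3 the falls numbered 2. Eprs and Qars were not called without replicate 2 or 3 of either adipocyte group, nor Eprs without replicate 2 or 3 of the Aclyf/f preadipocytes (limma adjusted p up to 0.115 and 0.0862). Wars was not called without any 1 Acly-/- adipocyte library or Aclyf/f adipocyte replicate 2 or 3 (limma adjusted p up to 0.0802). Iars and Rars were not called without any 1 Aclyf/f adipocyte library or without Acly-/- adipocyte replicate 1 or, respectively, 2 and 3 (limma adjusted p up to 0.174 and 0.136). Cars2 was not called without Aclyf/f adipocyte replicate 2 or 3, Acly-/- adipocyte replicate 2, Aclyf/f preadipocyte replicate 3 or Acly-/- preadipocyte replicate 2 (limma adjusted p up to 0.184). Lars was not called without Acly-/- adipocyte replicate 1 (limma adjusted p = 0.0529), nor Vars2 without Aclyf/f adipocyte replicate 1 (limma adjusted p = 0.0544). Tars, Dars, Farsb, Nars, Mars, Tarsl2, Pars2, Fars2 and Iars2 kept their calls without any 1 library.

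Differentiation in Aclyf/f cells raised nearly the whole set. Of 21 cytosolic genes 18 rose, 0 fell and 3 did not pass the test (Hars, Kars and Tarsl2), and of 17 mitochondrial genes 16 rose and 1 fell. Of all genes tested 72.5% were called, 36.5% higher and 36% lower. The median log2 difference was 0.82 for cytosolic and 0.83 for mitochondrial genes, against 0.00 for all genes. Mars went from 15.3, 20.2 and 16.5 FPKM in preadipocytes to 62.7, 60.8 and 58.9 in adipocytes, 3.51-fold (log2 difference 1.76 ± 0.10, limma adjusted p = 1.58e-09). Its deposited locus, chr10:127290793-127311786, is longer than the annotated gene, whose exons share 68 bases with Ddit3, the CHOP gene on the opposite strand, which went from 29.1 ± 2.55 to 332 ± 18.4 FPKM; as the handling of strand is not stated, reads of both genes cannot be told apart there. Eprs went from 60.3, 57.2 and 58.3 FPKM to 184, 189 and 190.4, a 3.20-fold rise (limma adjusted p = 3.16e-11). Yars went from 22.0, 24.6 and 24.6 FPKM to 76.6, 72.1 and 74.1, a 3.13-fold rise (limma adjusted p = 1.95e-10). No preadipocyte library came near an adipocyte library in these 3 genes. Wars rose by 3.12-fold and Aars by 2.87-fold, whereas Tars rose by 1.24-fold and Qars and Rars each by 1.32-fold.

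Among mitochondrial genes in Aclyf/f cells Tars2 went from 10.1, 8.19 and 9.65 FPKM to 32.9, 30.2 and 27.8, and Nars2 from 1.09, 0.835 and 1.25 to 5.31, 4.78 and 5.33. These rises were 3.26-fold and 4.85-fold (limma adjusted p = 1.37e-07 and 1.7e-07), with wide gaps between the stages. Of the others, Hars2 rose by 1.48-fold, the smallest rise, and Ears2 by 2.67-fold. Cars2 went from 6.08, 8.08 and 6.67 FPKM to 6.02, 5.48 and 4.92, 1.27-fold lower, at a limma adjusted p of 0.0489. That fall was not called without any 1 of 7 libraries (limma adjusted p = 0.0537 to 0.209), namely Aclyf/f preadipocyte replicate 2 or 3, Aclyf/f adipocyte replicate 2 or 3, Acly-/- preadipocyte replicate 2 and Acly-/- adipocyte replicate 1 or 3.

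In Acly-/- cells differentiation raised fewer cytosolic genes, from the higher starting level, and most mitochondrial ones. Of 21 cytosolic genes 11 rose, 2 fell and 8 did not pass the test, with a median log2 difference of 0.29, and of 17 mitochondrial genes 13 rose, 1 fell and 3 did not pass, with a median of 0.50. Of all genes tested 61.4% were called, 30.4% higher and 31% lower, with a median of 0.00. The largest cytosolic rises were those of Farsb, from 30.8, 25.8 and 26.8 to 59.6, 48.6 and 57.6 FPKM (1.99-fold, limma adjusted p = 5.82e-07), Eprs, from 106, 95.9 and 96.9 to 176, 165 and 159.8 (1.68-fold, limma adjusted p = 3e-07), and Dars, from 69.3, 60.9 and 56.3 to 96.0, 89.6 and 98.0 (1.52-fold, limma adjusted p = 4.53e-05). In all 3 the stages were apart. Gars stood at 175, 157 and 174 FPKM before and 180.3, 163 and 189.9 after differentiation, and Cars at 37.7, 34.7 and 40.0 before and 39.6, 34.9 and 39.2 after. Both overlapped between stages and did not pass the test (log2 differences 0.07 and 0.02).

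Tarsl2 fell in Acly-/- cells from 3.59, 3.11 and 2.71 to 1.51, 1.12 and 1.69 FPKM (2.18-fold lower, limma adjusted p = 0.000311), and Kars from 81.4, 84.4 and 86.8 to 70.0, 66.5 and 70.2 (1.22-fold lower, limma adjusted p = 0.00419). In both genes every adipocyte library lay below every preadipocyte library. Among mitochondrial genes Tars2 rose from 12.3, 9.18 and 15.2 to 30.8, 28.3 and 30.2 FPKM, Nars2 from 2.14, 1.13 and 1.96 to 4.85, 3.99 and 4.72, and Rars2 from 13.1, 11.9 and 9.35 to 23.1, 23.0 and 25.6. These rises of 2.43-fold, 2.59-fold and 2.08-fold left no overlap (limma adjusted p = 3.33e-06, 2.14e-05 and 2.06e-06). Cars2 was 1.28-fold lower with overlapping stages (limma adjusted p = 0.0364), and was not called without Acly-/- preadipocyte replicate 2 or 3 or Acly-/- adipocyte replicate 1 or 3 (limma adjusted p = 0.0901 to 0.125). Sars2, Fars2 and Wars2 did not pass the test. Single libraries also decided Aars2 (without Acly-/- preadipocyte replicate 1 or 2 or Acly-/- adipocyte replicate 1, limma adjusted p = 0.0704 to 0.0918), Hars2 (without replicate 1 or 3 of either Acly-/- group, 0.0523 to 0.0702) and Wars (without Acly-/- preadipocyte replicate 1, 0.0691). In a fit of the 6 Acly-/- libraries with the replicate number as a block, added after seeing the data, Aars2 was not called (limma adjusted p = 0.0525), which left 12 mitochondrial rises.

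**Figure D4:**
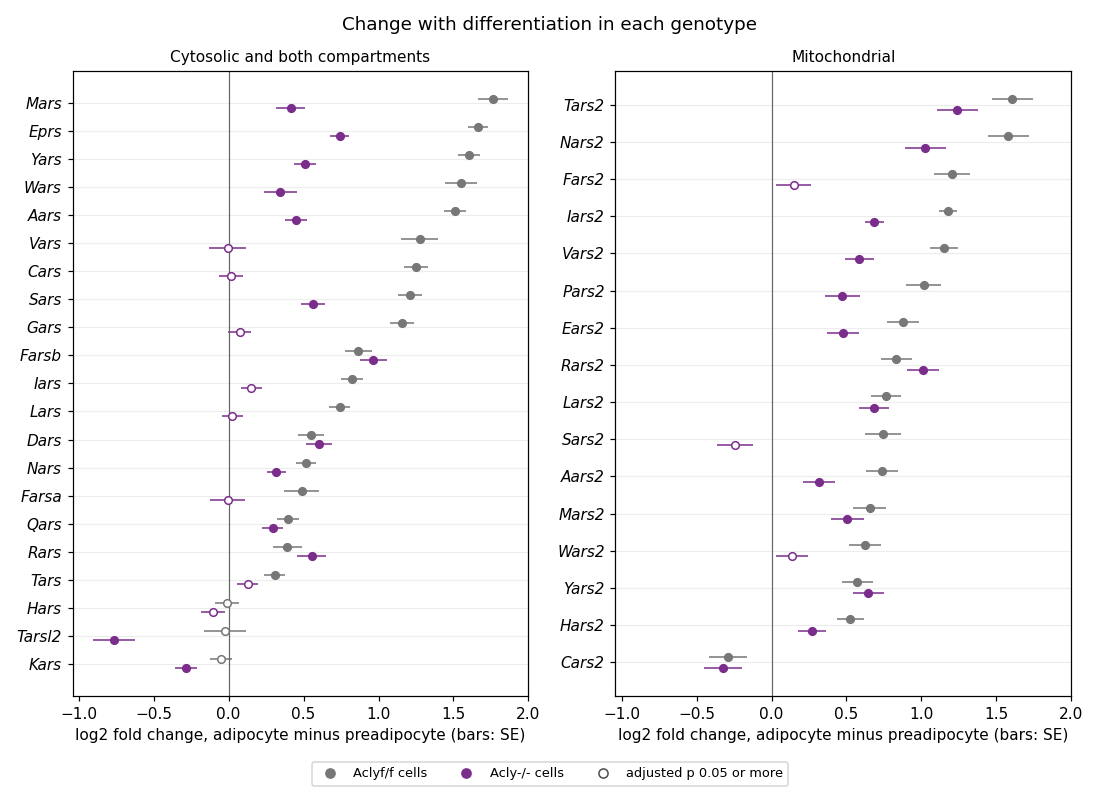
Log2 difference (adipocyte minus preadipocyte, on the log2(FPKM + 1) scale, bars SE) of 37 synthetase genes in Aclyf/f cells (grey) and Acly-/- cells (purple); filled points have a limma adjusted p under 0.05. In Aclyf/f cells 33 of the plotted genes are called higher, in Acly-/- cells 23, and the purple points of most cytosolic genes lie to the left of the grey ones.

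The difference between the 2 genotype effects was tested as an interaction, the effect of Acly loss in adipocytes minus that in preadipocytes. It was negative and called in 13 of 21 cytosolic and 10 of 17 mitochondrial genes, and positive and called in 0 of either. Of all genes tested 50.2% were called, 23.7% positive and 26.4% negative. The estimate was below 0 in 33 of 38 members, with a median of -0.67 for cytosolic and -0.42 for mitochondrial genes, against -0.02 for all genes. The largest was that of Mars at -1.35 ± 0.14 (limma adjusted p = 4.88e-06), followed by Vars at -1.28 ± 0.17, Cars at -1.24 ± 0.11 and Wars at -1.21 ± 0.15 (limma adjusted p = 4.79e-05, 1.66e-06 and 2.76e-05). The value of Mars is less certain, because its exons share bases with Ddit3. Among mitochondrial genes Fars2 stood at -1.06 ± 0.17 and Sars2 at -0.99 ± 0.17 (limma adjusted p = 0.000183 and 0.000337).

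A called interaction with genotype effects of opposite sign, each effect called or not, was found in 19 genes. Of all genes tested 50.2% had a called interaction, and the share with opposite signs was not computed. Some of these effects were small in adipocytes, such as -0.05 for Cars and -0.03 for Ears2. Besides the genes given above, Aars was at 181, 172 and 171 FPKM in Aclyf/f and 168, 169.9 and 159 in Acly-/- adipocytes, and Yars at 76.6, 72.1 and 74.1 against 71.7, 64.0 and 67.1. Vars was at 57.3, 49.3 and 50.4 FPKM against 46.1, 41.5 and 41.1. In these 3 the Acly-/- libraries lay below the controls without passing the test (limma adjusted p = 0.374, 0.141 and 0.0702). Sars was at 110.3, 98.8 and 98.0 FPKM against 90.0, 91.8 and 101, and Farsa at 28.6, 25.1 and 24.4 against 22.7, 22.6 and 25.9, both overlapping. Sars2 was at 7.15, 5.85 and 5.24 FPKM against 4.77, 4.72 and 5.0, and Vars2 at 12.4, 10.5 and 10.9 against 8.90, 9.32 and 8.21. In Aars2 (7.75, 6.97 and 6.60 FPKM against 6.88, 6.02 and 5.97), Nars2 (5.31, 4.78 and 5.33 against 4.85, 3.99 and 4.72) and Ears2 (3.01, 2.28 and 2.69 against 2.65, 2.37 and 2.73) the genotypes overlapped in adipocytes.

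Called in both stages with opposite directions were 5 genes: Eprs, Mars, Wars and Fars2, among these, rose without Acly in preadipocytes and fell in adipocytes. Another 7 genes (Dars, Farsb, Iars, Lars, Nars, Tars and Cars2) rose at both stages, and 12 rose in preadipocytes and were not called in adipocytes. Gars belongs to these 12: its genotype effect was 1.11 in preadipocytes and 0.02 in adipocytes, with an interaction of -1.08 ± 0.11 (limma adjusted p = 3.73e-06), and the libraries of the other 3 groups all lay between 157 and 189.9 FPKM, above the Aclyf/f preadipocytes. For Kars the interaction of -0.23 ± 0.10 was not called (limma adjusted p = 0.0786), and neither was that of Tars at -0.18 ± 0.10 (limma adjusted p = 0.141). No synthetase gene fell on Acly loss in preadipocytes. Hars, Aars2, Hars2, Lars2, Mars2, Rars2, Tars2 and Yars2 were called in no genotype comparison. Among all genes tested 42.2% were called on Acly loss in preadipocytes and 54.8% in adipocytes. The shares of all genes with the patterns across both stages were not computed, so these counts have no background. Of the 23 interactions, 4 were lost on leaving out single libraries. That of Ears2 was lost without replicate 2 or 3 of either preadipocyte group, Aclyf/f adipocyte replicate 1 or 3, or Acly-/- adipocyte replicate 1 or 2 (limma adjusted p = 0.0518 to 0.0964). That of Aars2 was lost without Aclyf/f preadipocyte replicate 2 or 3, Acly-/- preadipocyte replicate 3, Aclyf/f adipocyte replicate 1 or 2, or Acly-/- adipocyte replicate 2 or 3 (limma adjusted p = 0.054 to 0.0786). That of Nars2 was lost without Aclyf/f preadipocyte replicate 2, Acly-/- preadipocyte replicate 1 or 3, Aclyf/f adipocyte replicate 1 or 3, or Acly-/- adipocyte replicate 2 (limma adjusted p = 0.0556 to 0.0737). That of Farsa was lost without Aclyf/f preadipocyte replicate 3, Aclyf/f adipocyte replicate 1, or Acly-/- adipocyte replicate 1 or 2 (limma adjusted p = 0.0541 to 0.057).

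**Figure D5:**
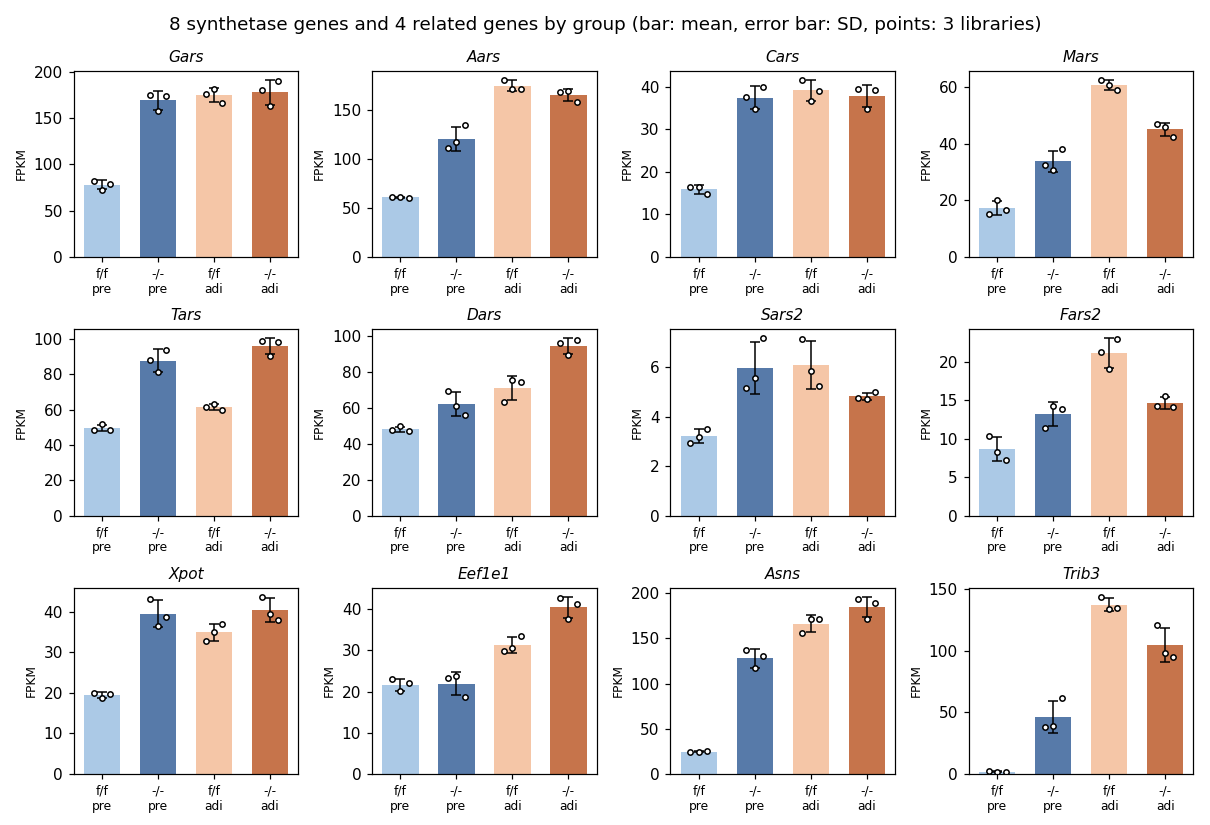
FPKM of 8 synthetase genes and of Xpot, Eef1e1, Asns and Trib3 in the 4 groups (f/f, Aclyf/f; -/-, Acly-/-; pre, preadipocyte; adi, adipocyte); bars are means, error bars SD and points the 3 libraries. Gars, Aars and Cars are lowest in Aclyf/f preadipocytes, Tars is high in both Acly-/- groups, and Fars2 is highest in Aclyf/f adipocytes.

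Of the 8 enzymes of the multisynthetase complex (Dars, Eprs, Iars, Kars, Lars, Mars, Qars and Rars), 6 rose on Acly loss in preadipocytes, where 19.7% of all genes tested rose, and in adipocytes 4 rose and 3 fell, where 25.6% of all genes rose and 29.2% fell. Their directions differed in adipocytes: without Acly, Dars stood 1.33-fold higher and Mars 1.35-fold lower. The adipocyte calls of Iars, Lars, Rars, Eprs and Qars were each lost on leaving out some single libraries. With the same FPKM sum in each library those of Iars, Lars and Rars were lost (limma adjusted p = 0.394, 0.135 and 0.281). Of the 3 scaffolds, Aimp2 was at 21.0, 23.4 and 20.0 FPKM in Aclyf/f and 29.7, 28.6 and 33.5 in Acly-/- preadipocytes, and at 24.3, 23.6 and 22.1 against 31.6, 28.1 and 30.3 in adipocytes. Aimp2 was thus higher without Acly at both stages with no overlap, by 0.49 and 0.35 on the log2 scale. Eef1e1 overlapped between genotypes in preadipocytes, and in adipocytes was at 29.9, 30.6 and 33.5 FPKM against 42.6, 37.5 and 41.1 (1.29-fold, limma adjusted p = 0.00633, and 0.0938 with the same FPKM sum in each library). Aimp1 rose by 0.30 on the log2 scale in preadipocytes (limma adjusted p = 0.062 with the same FPKM sum).

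For 17 amino acids a cytosolic and a mitochondrial gene could be set beside each other. Eprs was used for both glutamate and proline, and Farsa, without Farsb, for phenylalanine. The ratio of the cytosolic to the mitochondrial level had a median of 5.38 in Aclyf/f preadipocytes, from 1.35 for isoleucine to 113 for asparagine, and of 7.85 in Acly-/- preadipocytes. On Acly loss in preadipocytes the ratio was higher with no overlap between the libraries for 9 amino acids, lower for serine and overlapping for 7. In adipocytes it was higher for 10, lower for cysteine, methionine and tryptophan, and overlapping for 4. With differentiation in Aclyf/f cells it was higher for 7, lower for 7 and overlapping for 3, and in Acly-/- cells it was higher for serine, lower for 8 and overlapping for 8. These ratios carry no test. The levels of single genes, a measure unlike the ratios, did not overlap in 49.9% of all genes tested for Acly loss in preadipocytes. The share was 63.2% for Acly loss in adipocytes. For differentiation it was 75.7% in Aclyf/f and 64.6% in Acly-/- cells.

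Of 15 tested genes of tRNA processing and export, 4 rose and 1 fell on Acly loss in preadipocytes, a share called of 33.3% that is under the 42.2% of all genes. Xpot, which carries tRNA out of the nucleus, was at 20.0, 18.7 and 19.7 FPKM in Aclyf/f and 43.2, 36.6 and 38.8 in Acly-/- preadipocytes, a 2.03-fold rise with no overlap (limma adjusted p = 6.09e-07). Its difference in adipocytes, 0.20 on the log2 scale, was called at 0.0449 but not without any 1 of 7 libraries (limma adjusted p = 0.0533 to 0.185), namely the 3 Aclyf/f preadipocyte libraries, Aclyf/f adipocyte replicate 1 or 2 and Acly-/- adipocyte replicate 1 or 2. Hsd17b10, a subunit of mitochondrial RNase P, was lower without Acly at both stages, by 1.33-fold and 1.58-fold. Mitochondria lack a glutamine enzyme and convert glutamate on its tRNA instead, with the subunits Qrsl1, Gatb and Gatc; with Mtfmt, which formylates the initiator methionine, 0 of these 4 rose and 1 fell in preadipocytes. That gene, Gatb, was at 12.5, 13.0 and 10.0 FPKM against 7.96, 8.99 and 9.24, and in adipocytes it rose, from 15.7, 13.4 and 13.9 to 19.6, 20.2 and 23.0. Qrsl1 rose with differentiation by 2.48-fold in Aclyf/f and 2.00-fold in Acly-/- cells.

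Among 21 genes of RNA polymerase III transcription, which makes tRNA, 4 rose and 2 fell in preadipocytes without Acly, and 7 rose and 3 fell in adipocytes, shares of 28.6% and 47.6% called that are under those of all genes. Of the 5 cytosolic elongation factor genes, 4 fell with differentiation in Aclyf/f cells, where 36% of all genes fell, and 4 were higher without Acly in adipocytes, where 25.6% of all genes were. Eef1g, for example, was at 494, 453 and 437 FPKM in Aclyf/f and 761, 741 and 888 in Acly-/- adipocytes. All 4 mitochondrial genes of elongation (Tufm, Tsfm and Gfm1) and ribosome recycling (Gfm2) rose with differentiation in Aclyf/f cells. The same held for 36.5% of all genes tested. The largest log2 difference was that of Gfm2, at 2.40-fold (limma adjusted p = 4.87e-08).

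Atf4 and 13 of its well known targets outside the synthetases all rose on Acly loss in preadipocytes, 14 of 14, with a median log2 difference of 1.47, and all 14 rose with differentiation in Aclyf/f cells. Of all genes tested, 19.7% and 36.5% rose in these comparisons. Asns, for asparagine synthesis, went from 24.4, 24.7 and 25.5 FPKM to 137, 117 and 130.2 without Acly in preadipocytes, and Atf4 from 156, 150.2 and 149 to 311, 313 and 363. The largest difference was that of Trib3, a pseudokinase of the same response, at 2.22, 1.47 and 1.85 FPKM in Aclyf/f and 38.3, 39.2 and 61.3 in Acly-/- preadipocytes. In adipocytes 5 of the 14 rose and 5 fell, against 25.6% and 29.2% of all genes. Eif2ak4, the GCN2 gene, was not called in preadipocytes (log2 difference -0.19) and was 1.36-fold lower in Acly-/- adipocytes. These values come from the same libraries as those of the synthetases and are given side by side only.

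Some members share exon bases with a neighbour in GENCODE M21, and counting could split or merge their reads. Aars shares 23.1% of its exon bases with Exosc6 on the same strand, at 8.27 to 13.2 FPKM in the 4 groups. Iars2 shares 30.5% with Rab3gap2 on the opposite strand. Rab3gap2 was at 16.4 ± 0.55 FPKM in Aclyf/f and 11.9 ± 0.80 in Acly-/- adipocytes, lower without Acly as Iars2 was. In preadipocytes, where Iars2 was not called, it was at 14.2 ± 0.53 and 12.6 ± 0.43. Whether shared reads had a part in the fall of Iars2 was not tested. Farsb shares 11.3% with Sgpp2, whose group means were at most 0.0453 FPKM. Hars and Hars2 overlap head to head. Mars shares 2.29% with Ddit3 on the opposite strand. Ddit3 was at 29.1 ± 2.55 FPKM in Aclyf/f and 67.3 ± 18.2 in Acly-/- preadipocytes. In adipocytes it was at 332 ± 18.4 in Aclyf/f and 240 ± 14.3 in Acly-/- cells. Ddit3 was thus higher without Acly in preadipocytes and lower in adipocytes, as Mars was. Whether shared reads had a part in the changes of Mars was not tested. The deposited loci of Farsb, Iars2, Yars, Mars and Ears2 are wider than their genes, so values of these members are less certain. For Ears2 the locus spans 32925 bases and the gene 30051.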

How the data were processed

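The authors deposited 1 table of FPKM for 12 libraries, with 1 column per library, per the file headers. Per the submitters' processing notes, build mm10, Cufflinks 2.2.1, Bowtie2 2.2.6 and bcl2fastq were used. No source used here names the gene annotation, any filter or the handling of strand. The table has no counts, so depth was estimated from the steps between low FPKM values and GENCODE M21 transcript lengths. From the deposited FPKM, log2(FPKM + 1) was modelled by group means, with a variance trend, in limma 3.58.1 (R 4.3.3), over the 11777 genes that reached 1 FPKM in 3 or more libraries, in 5 contrasts. The code was tested on simulated data. Deposited starts were raised by 1 base, after comparison with RefSeq.

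The members and lists were chosen with earlier results of these data known. Genes named with library values are, per contrast and class, the 3 largest rises and falls among called members, with Gars, Kars, Eprs, Wars and members whose called interaction has genotype effects of opposite sign. Where further genes were given values (Aars, Iars2, the related genes), they were picked after values were seen. Alternatives were 3 other scalings, 2 other pseudocounts (0.1 and 0.5), 2 other filters (none and 5 FPKM), no variance trend, only the groups compared, a replicate block, and each library left out; a block within the Acly-/- libraries was added after seeing the data. The values of 1 mitochondrial member are not reported here, while counts and sums include it. The labels do not say that replicate numbers pair samples. Deviations from the group means correlated above 0.1 in every same-numbered pair only between the Acly-/- preadipocytes and the Acly-/- adipocytes. These r were 0.123, 0.147 and 0.124, against -0.15 to 0.02 between different numbers of these groups. Of the other 15 same-numbered pairs, 1 exceeded 0.1. Among all 36 pairs with different numbers 10 did, with r up to 0.42, so pairing is not established. All main tests were unpaired, and the block within the Acly-/- libraries was an alternative only. Figures were drawn with matplotlib 3.10.9 in Python 3.11.15.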

Additional observations from a re-analysis of the deposited data

Results flagged for a closer look

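In 23 of the 38 synthetase genes the effect of Acly loss differed between the stages by the interaction test, always towards a smaller rise or a fall in adipocytes. Of all genes tested 50.2% were called in that test, 23.7% with a positive and 26.4% with a negative difference. Values are the log2 effect in adipocytes minus that in preadipocytes. Among cytosolic genes the difference was -1.35 for Mars, -1.28 for Vars, -1.24 for Cars, -1.21 for Wars, -1.10 for Yars, -1.08 for Gars, -1.06 for Aars, -0.92 for Eprs, -0.74 for Tarsl2, -0.72 for Lars, -0.67 for Iars, -0.65 for Sars and -0.49 for Farsa. Among the mitochondrial genes given here it was -1.06 for Fars2, -0.99 for Sars2, -0.56 for Nars2, -0.56 for Vars2, -0.54 for Pars2, -0.49 for Iars2, -0.49 for Wars2, -0.42 for Aars2 and -0.40 for Ears2. For Tarsl2, Iars2, Pars2, Vars2 and Aars2 the effect in preadipocytes was not called. The difference in Tarsl2, Iars2 and Pars2 lay mainly in lower adipocyte levels. For Vars2 the effects were 0.24 in preadipocytes and -0.32 in adipocytes. The part of reads shared between Mars and Ddit3 was not tested.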

How the results depend on the processing

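No synthetase gene changed direction with a call under any alternative. Counts of cytosolic genes higher in Acly-/- preadipocytes ran from 15 to 17 and of mitochondrial genes from 5 to 10 over all alternatives, and of cytosolic genes higher with differentiation in Aclyf/f cells stayed at 18. The counts that moved were small. In adipocytes, cytosolic genes higher without Acly went from 7 to 4 with the same FPKM sum and to 4 to 7 on leaving out 1 library; those lower went from 5 to 2 with quantile normalization, to 8 with the same FPKM sum and to 2 to 6 on leaving out 1 library; mitochondrial genes higher went from 1 to 0 with the same FPKM sum, with no filter, and to 0 to 1 on leaving out 1 library. Mitochondrial genes lower in Acly-/- preadipocytes were 0 to 1 on leaving out 1 library. With differentiation in Aclyf/f cells, cytosolic genes lower went from 0 to 1 with quantile normalization, and mitochondrial genes lower from 1 to 0 with no filter and 0 to 1 on leaving out 1 library. With differentiation in Acly-/- cells, cytosolic genes lower went from 2 to 1 with a filter of 5 FPKM, which leaves out Tarsl2, and mitochondrial genes lower from 1 to 0 with no filter and 0 to 2 on leaving out 1 library. The cause was not tested where none is given.

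Summed levels moved by more than 1 SD as follows. The cytosolic sum of Aclyf/f preadipocytes became 890.1 (quantile) and 886 (same FPKM sum), and that of Aclyf/f adipocytes 1544 (quantile), 1595 (median of ratios) and 1675 (same FPKM sum). With the same FPKM sum the mitochondrial sum became 128 for Acly-/- preadipocytes, 201 for Acly-/- adipocytes and 246 for Aclyf/f adipocytes, and with quantile normalization 229 for the last. The ratio in Aclyf/f preadipocytes became 7.95 (quantile). No scaling moved the median of all genes by more than 0.09 on the log2 scale.

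Same-numbered libraries of the 2 Acly-/- groups correlated weakly in their deviations (r = 0.123 to 0.147). Libraries with different numbers in other groups reached 0.42, so pairing is not established. With the replicate block in the 6 Acly-/- libraries, added after seeing the data, differentiation left 11 cytosolic genes higher and 2 lower. It left 12 mitochondrial ones higher and 1 lower, and no synthetase call but that of Aars2 changed. In a fit of all 12 libraries, where groups may share only a number, the block left 17 cytosolic genes higher in Acly-/- preadipocytes and 8 mitochondrial ones. In adipocytes it left 6 higher and 4 lower cytosolic genes.

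Low FPKM limit what can be seen for Ears2, Nars2, Sars2 and Tarsl2, whose lowest libraries hold an estimated 15 to 39 fragments by the longest transcript. With 3 libraries a group, small differences of such genes may be missed.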
